A study of Mus musculus with 30 samples.

Results

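Cbr1 and Cbr3 encode carbonyl reductases and lie next to each other on mouse chromosome 16. They are 2 of the 18193 genes with a probe set of their own on the arrays of this series, and each is read by 1 probe set. They were chosen because their signal was higher under 1,4-dichlorobenzene than under corn oil in every genotype treated. The dichlorobenzene values therefore describe the choice and carry no test, while the responses to cyproterone acetate and the genotypes under corn oil were not used for it and were tested.

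Liver RNA came from adult male mice on a C57BL/6J background, dosed daily by oral gavage. The 30 arrays form 10 groups of 3. Corn oil (CO, 0 mg/kg, 3 days) was given to wild type mice (WT), to hCAR/hPXR mice humanised for CAR and PXR, to CARko/PXRko mice deleted for both, and to PXRko mice. 1,4-Dichlorobenzene (DCB, a chlorinated solvent and mothball ingredient) was given at 600 mg/kg for 3 days to WT, hCAR/hPXR and CARko/PXRko mice. Cyproterone acetate (CPA, a synthetic steroid that blocks the androgen receptor) was given at 160 mg/kg to the same 3 genotypes. The CPA samples of WT and hCAR/hPXR mice are labelled 6 days and those of CARko/PXRko mice 3 days; the protocol has 3 days for every group. The labels do not say from which promoter the human receptors are expressed. The design states 5 mice per group, and the labels do not say that each array is a separate mouse, so p-values measure the spread between these arrays, which may be technical.

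Carbonyl reductases of this family are short-chain dehydrogenases that use NADPH to reduce ketones, aldehydes and quinones to alcohols. CBR1 is the broad-acting member: in humans it reduces prostaglandins, lipid aldehydes and anthracycline drugs. CBR3 is its close paralog, with fewer known substrates, and in human cells it is described as a target of NRF2, the factor that switches on antioxidant genes. CAR and PXR are receptors of the liver cell that sense foreign chemicals and turn up the enzymes that clear them, and Cyp2b10 is the standard mouse reporter gene of CAR.

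The promoter windows of both genes are shown because the members are chromosomal neighbours that were both chosen for a response to DCB. They are RefSeq sequences of build GRCm38.p6, plus strand, from 250 bases before to 50 bases after the annotated start. The Cbr1 window is chr16:93607587-93607886 and the Cbr3 window is chr16:93682969-93683268. Capitals mark every match, on either strand, to the letters searched, which were GCGTG (core of the dioxin response element), GGGCGG (GC box), TATAAA (the box bound by the basal transcription machinery), TGACNNNGC (core of the antioxidant response element bound by NRF2) and AGGTCA (a binding unit of nuclear receptors).
Cbr1: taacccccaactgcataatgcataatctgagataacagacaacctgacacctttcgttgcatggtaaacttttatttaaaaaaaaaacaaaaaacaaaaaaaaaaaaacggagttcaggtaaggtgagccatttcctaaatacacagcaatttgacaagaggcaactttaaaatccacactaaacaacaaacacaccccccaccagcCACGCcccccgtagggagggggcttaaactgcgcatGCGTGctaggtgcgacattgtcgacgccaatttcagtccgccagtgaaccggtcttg
Cbr3: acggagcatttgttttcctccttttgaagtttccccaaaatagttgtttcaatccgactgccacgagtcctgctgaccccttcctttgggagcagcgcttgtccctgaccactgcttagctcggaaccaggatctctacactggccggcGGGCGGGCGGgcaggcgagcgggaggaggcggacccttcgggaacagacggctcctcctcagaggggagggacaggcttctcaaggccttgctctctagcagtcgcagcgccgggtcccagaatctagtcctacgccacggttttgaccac
In the Cbr1 window the capitals are 2 matches to GCGTG, which start 43 and 7 bases before the annotated start, the first on the opposite strand. In the Cbr3 window they are 2 overlapping matches to GGGCGG, which start 101 and 97 bases before it. Of 32851 promoter windows of the same length, 32.4% hold GCGTG, 35.7% hold GGGCGG, 12.4% hold TGACNNNGC, 13.6% hold TATAAA and 16.3% hold AGGTCA. The last 3 sets of letters are in neither window shown. The Cbr1 window is 44.0% G and C with 11 CG pairs, and the Cbr3 window is 60.0% with 19.

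The deposited values are log2 probe set summaries made by RMA, with array medians of 5.36 to 5.44. All 8 hepatocyte markers examined lay above the array median on every array, and their median stayed within -0.06 and 0.04 log2 units of WT corn oil. Nr1i3 (mouse CAR) had group means of 6.24 to 6.81 in hCAR/hPXR and CARko/PXRko groups, against 9.59 to 10.41 in the WT and PXRko groups. Nr1i2 (mouse PXR) had means of 4.41 to 4.78 in hCAR/hPXR, CARko/PXRko and PXRko mice and 7.52 to 7.79 in WT mice. The median of 17 skeletal muscle markers was over 1 log2 unit above WT corn oil on 4 arrays: corn oil CARko/PXRko replicate 2 (6.27), DCB CARko/PXRko replicates 2 (1.93) and 3 (5.83), and corn oil PXRko replicate 3 (1.14). DCB CARko/PXRko replicate 3 was also 5.47 above over 5 adrenal cortex markers and 5.35 above over 5 brown fat markers, and replicate 2 of that group was 3.17 above over 7 squamous epithelium markers. Values in CARko/PXRko and PXRko mice that include these arrays are given again without them where the call or the size depends on it, and leaving all 4 out leaves 1 DCB array in CARko/PXRko mice, assumed to vary like the other groups.

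Cbr1 was above the array median on all 30 arrays. Under corn oil the WT arrays read 10.63, 10.62 and 11.30, and the PXRko arrays 10.69, 10.73 and 10.72. The hCAR/hPXR arrays read 11.04, 10.71 and 11.37, and the CARko/PXRko arrays 11.16, 11.09 and 10.80. Neighbours among these 4 groups, in the order of their means, overlapped, and WT replicate 3 was the high array of its group. Under CPA the WT arrays read 12.03, 11.94 and 11.91, the hCAR/hPXR arrays 12.31, 12.80 and 12.63, and the CARko/PXRko arrays 12.64, 12.85 and 12.07. Under DCB the WT arrays read 12.38, 12.25 and 12.65, the hCAR/hPXR arrays 12.91, 13.20 and 12.91, and the CARko/PXRko arrays 12.83, 12.73 and 12.48. All 18 treated arrays, at 11.91 or more, thus lay above all 12 corn oil arrays, at 11.37 or less. The DCB arrays among them were used to choose the members, and how many of all genes separate in this way was not counted.

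By group mean, Cbr1 ran from PXRko, WT, CARko/PXRko and hCAR/hPXR under corn oil (10.71 to 11.04) through CPA WT (11.96), DCB WT (12.43), CPA CARko/PXRko (12.52), CPA hCAR/hPXR (12.58) and DCB CARko/PXRko (12.68) to DCB hCAR/hPXR (13.01). Neighbours in this order were separated without overlap at 3 steps: between corn oil and CPA WT, between CPA WT and DCB WT, and between DCB CARko/PXRko and DCB hCAR/hPXR. The last gap was 0.08 log2 units wide. How many of all genes separate at these steps was not counted, so no difference between groups is read from them.

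Cbr3 was above the array median on 29 of 30 arrays, and outside the DCB groups its group means of 5.73 to 7.26 lay near it. Under corn oil the WT arrays read 5.58, 5.54 and 6.05, the PXRko arrays 5.80, 6.40 and 6.29, and the hCAR/hPXR arrays 6.78, 6.23 and 6.22. The corn oil CARko/PXRko arrays read 6.13, 7.65 and 5.40. Replicate 2, the highest of all corn oil arrays, is the one with the most muscle transcripts, and replicate 3 is the only one of the 30 arrays on which Cbr3 lay below the array median. The SD of that group was 1.15, against 0.13 to 0.67 in the other groups, and whether the muscle RNA has a part in it was not tested. Under CPA the WT arrays read 6.27, 5.96 and 5.88, the hCAR/hPXR arrays 7.30, 7.03 and 7.44, and the CARko/PXRko arrays 7.01, 6.79 and 6.78. Under DCB the WT arrays read 10.42, 10.47 and 11.61, the hCAR/hPXR arrays 11.81, 12.67 and 12.22, and the CARko/PXRko arrays 10.99, 10.22 and 10.96. The 9 DCB arrays lay between 10.22 and 12.67 and the 21 others between 5.40 and 7.65, with nothing in between. Cbr3 was chosen for being high under DCB, so nothing is read from this gap.

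**Figure D1:**
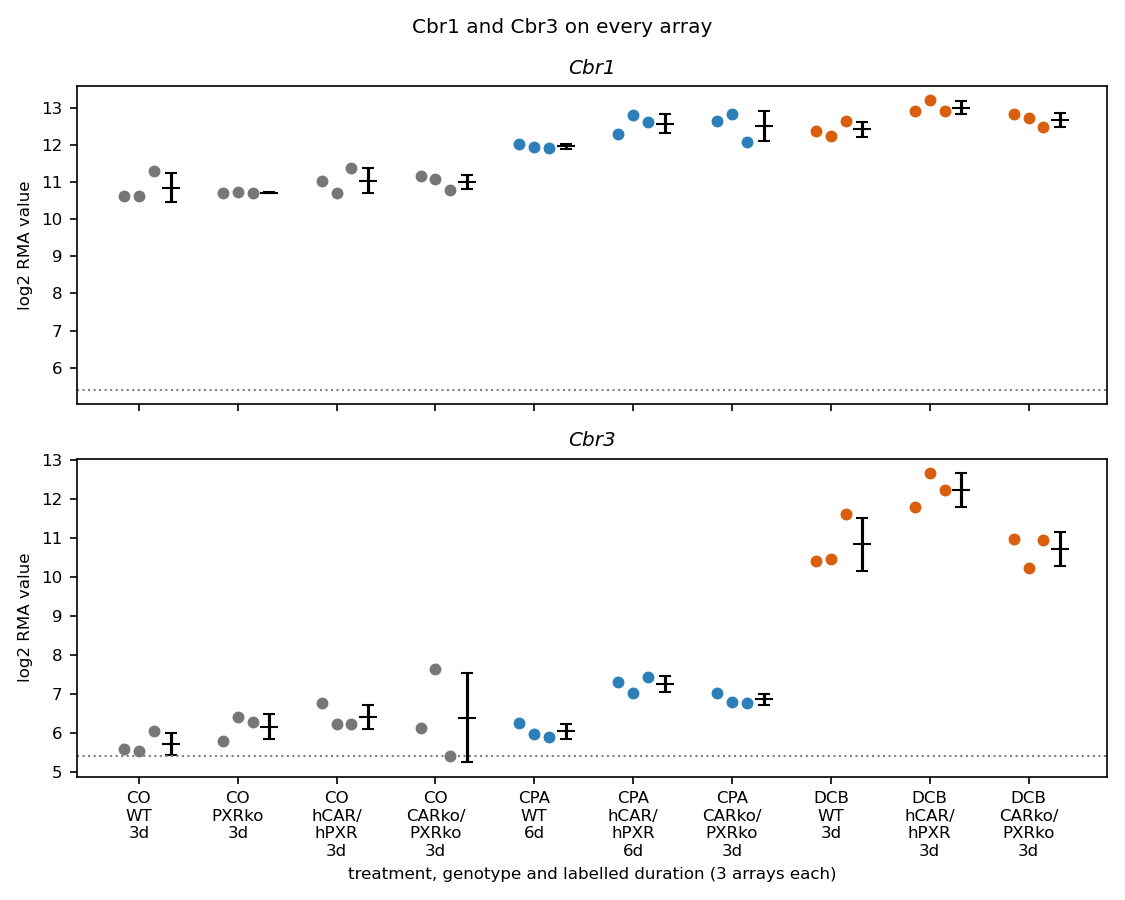
log2 RMA values of Cbr1 (top) and Cbr3 (bottom) on each of the 30 arrays by group, with the group mean and SD (n = 3) beside the points and the mean array median as a dotted line; CO is corn oil. Cbr1 is higher under both compounds than under corn oil, whereas Cbr3 lies at 10.22 or more under DCB and at 7.65 or less elsewhere.

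By group mean, Cbr3 ran from WT under corn oil (5.73) to CPA WT (6.04), then PXRko (6.16), CARko/PXRko (6.39) and hCAR/hPXR (6.41) under corn oil, then CPA CARko/PXRko (6.86) and CPA hCAR/hPXR (7.26). Of these 7 groups, neighbours overlapped at every step but the last, where the gap was 0.02 log2 units. The DCB groups followed with CARko/PXRko (10.72) and WT (10.84), which overlapped, and hCAR/hPXR (12.23), which did not overlap WT (gap 0.19). For these steps too the share of all genes that separate was not counted, and no genotype difference is read from them.

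Under DCB both genes were higher than under corn oil in all 3 genotypes, including mice deleted for both receptors, and the log2 difference was larger for Cbr3 than for Cbr1 in each. As log2 differences from corn oil of the same genotype (± SE of the fit, 3 arrays a group), Cbr3 was higher by 5.11 ± 0.38 in WT, by 5.82 ± 0.38 in hCAR/hPXR mice and, in CARko/PXRko mice, by 4.33 ± 0.38. With corn oil values this near the array median, the size of the Cbr3 difference in folds is not given. Among 12795 genes, ordered by the size of the rise, Cbr3 stood at rank 1 in WT, rank 2 in hCAR/hPXR mice and rank 1 in CARko/PXRko mice. Cbr1 was higher by 1.58 ± 0.20, 1.97 ± 0.20 and 1.66 ± 0.20, which are 2.98-fold, 3.91-fold and 3.17-fold, at ranks 31, 27 and 26. Without the 4 arrays with muscle transcripts the ranks in CARko/PXRko mice were 1 for Cbr3 and 20 for Cbr1. In each genotype all 3 DCB arrays lay above all 3 corn oil arrays for both members, as they did for 10.2% of genes in WT mice, 10% in hCAR/hPXR mice and 5.99% in CARko/PXRko mice. Nothing is read from that, because the members were chosen on these contrasts. In bulk liver RNA a change in the number of cells of a type and a change in RNA per cell cannot be told apart.

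The size of the DCB difference is set beside that in WT mice here as a description, with intervals and no test. For Cbr3 the difference in hCAR/hPXR minus that in WT mice was 0.71 ± 0.54 (95% confidence interval -0.41 to 1.84), and in CARko/PXRko minus WT mice it was -0.78 ± 0.54 (-1.90 to 0.34). For Cbr1 the same values were 0.39 ± 0.28 (-0.19 to 0.98) and 0.09 ± 0.28 (-0.50 to 0.67). With array weights the hCAR/hPXR distance was 0.99 ± 0.41 for Cbr3 (0.15 to 1.84) and 0.51 ± 0.22 for Cbr1 (0.044 to 0.97). For both genes that was the only 1 of 22 alternative fits whose interval left out 0. Several of these fits can change only the SE and not the value. The members were chosen on these contrasts, so no genotype difference is read from the intervals. The Cbr3 value in CARko/PXRko mice moved with single corn oil arrays, in both directions. Without replicate 2, which has muscle transcripts, the difference from corn oil was 4.96 and its distance from WT mice -0.15. Without replicate 3 they were 3.83 and -1.28 ± 0.50 (-2.31 to -0.25), the only 1 of 23 alternative fits of this distance whose interval left out 0. Without all 4 arrays with muscle transcripts, which leaves 1 DCB array in that genotype, they were 5.22 and 0.11. On the DCB arrays Cyp2b10 read 7.40 to 12.08 in WT, 12.29 to 12.87 in hCAR/hPXR and 5.66 to 6.04 in CARko/PXRko mice. In the double knockout it was thus near its corn oil level. That Cbr1 and Cbr3 were high there was given by their choice, so nothing about CAR is read from the contrast with Cyp2b10.

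Under CPA Cbr1 rose in every genotype given it, and Cbr3 passed the test in none. The difference between the 2 genes was not tested. Cbr1 rose by 1.11 ± 0.20 in WT (2.16-fold, limma adjusted p = 0.00487), by 1.54 ± 0.20 in hCAR/hPXR (2.90-fold, adjusted p = 3.97e-05) and, in CARko/PXRko mice, by 1.50 ± 0.20 (2.84-fold, adjusted p = 7.3e-05). It was 1 of 2 members called in each, where 0.485%, 1.52% and 2.18% of 12795 genes were called higher. All 3 CPA arrays exceeded all 3 corn oil arrays in each genotype, as they did for 11.7%, 9.7% and 10.9% of genes. Without corn oil WT replicate 1 or replicate 2, the rise in WT mice was 1.00 in either case, with adjusted p = 0.0523 and 0.05001. The rises in the other genotypes kept their call whichever array was left out, with adjusted p of at most 0.00130.

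For Cbr3 the CPA difference was 0.31 ± 0.38 in WT (95% confidence interval -0.48 to 1.11, adjusted p = 0.917), 0.85 ± 0.38 in hCAR/hPXR (0.06 to 1.64, adjusted p = 0.266) and 0.47 ± 0.38 in CARko/PXRko mice (-0.33 to 1.26, adjusted p = 0.498). In hCAR/hPXR mice the 3 CPA arrays lay above the 3 corn oil arrays, with a gap of 0.26, as they did for 9.7% of genes. The groups overlapped in the other genotypes. Without corn oil CARko/PXRko replicate 2 the value in that genotype was 1.10 (adjusted p = 0.0612), and without replicate 3 it was -0.03. The CPA and DCB differences of a genotype share their corn oil arrays, and in WT and hCAR/hPXR mice CPA arrays labelled 6 days are set against 3-day controls, so compound and labelled duration cannot be told apart there.

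**Figure D2:**
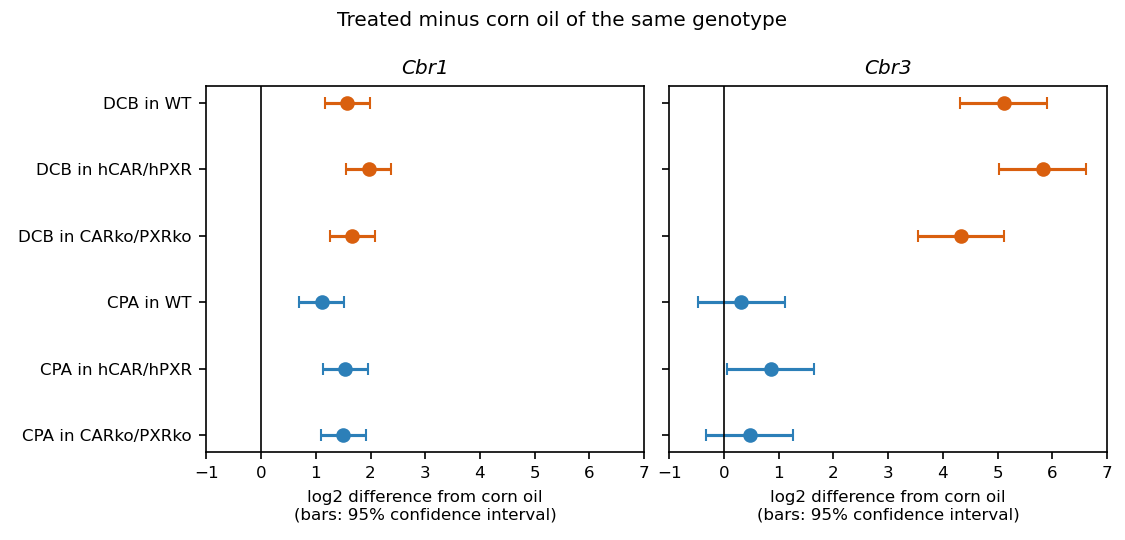
log2 difference of each treated group from corn oil of the same genotype (points) with 95% confidence intervals (bars) for Cbr1 (left) and Cbr3 (right), 3 arrays a group. The Cbr1 points lie between 1.11 and 1.97 for both compounds, and the Cbr3 points lie between 4.33 and 5.82 under DCB and between 0.31 and 0.85 under CPA.

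The size of the CPA effect was compared between genotypes to see whether the receptors changed it. For Cbr1 it was 0.43 ± 0.28 larger in hCAR/hPXR than in WT mice (95% confidence interval -0.16 to 1.01, limma adjusted p = 1.00, unadjusted p = 0.145 in the same fit). In CARko/PXRko mice it was 0.39 ± 0.28 larger than in WT mice (-0.19 to 0.98, limma adjusted p = 0.768, unadjusted p = 0.176 in the fit), and there genotype and labelled duration cannot be told apart. The Cbr3 differences were 0.54 ± 0.54 (-0.58 to 1.66) and 0.16 ± 0.54 (-0.97 to 1.28), with limma adjusted p = 1.00 and 0.957. In these comparisons 0.0625% and 0.0703% of genes were called, and 0 of 2 members were, also 0 at an unadjusted p under 0.05. The intervals leave room for a Cbr1 effect 2.02 times as large in hCAR/hPXR as in WT mice, so a missing call does not show equal effects. Cyp2b10 rose under CPA by 7.28 ± 0.77 in WT, 6.13 ± 0.77 in hCAR/hPXR mice and 3.51 ± 0.77 in CARko/PXRko mice, the last from arrays at 10.30, 11.22 and 8.38 (limma adjusted p = 0.00812) and 4.14 ± 0.87 without the arrays with muscle transcripts. The Kupffer cell and macrophage markers (10 of 10 measured, all above the array median on every array) had medians of -1.26 to 0.05 log2 units from WT corn oil on CPA arrays, -0.77 to -0.19 on DCB arrays and -0.39 to 0.76 on corn oil arrays. The stellate cell and fibroblast markers had medians of -0.86 to -0.18 on CPA arrays, -1.20 to 0.69 on DCB arrays and -0.51 to 0.97 on corn oil arrays. The part of either list in the results for Cbr1 and Cbr3 was not tested. Muscle markers were within -0.07 and 0.17 on the CPA arrays.

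At rest the genotypes did not differ detectably in either gene. In hCAR/hPXR against WT mice under corn oil, Cbr1 differed by 0.19 ± 0.20 and Cbr3 by 0.68 ± 0.38 (limma adjusted p = 1.00 for both). The 3 hCAR/hPXR arrays lay above the 3 WT arrays for Cbr3, as they did for 4.37% of genes. In CARko/PXRko against WT mice the values were 0.17 ± 0.20 for Cbr1 and 0.67 ± 0.38 for Cbr3. The Cbr3 value was 0.04 without replicate 2 of the CARko/PXRko group and 1.17 ± 0.37 without its replicate 3 (0.40 to 1.93, limma adjusted p = 0.885). PXRko mice differed from WT by -0.14 ± 0.20 in Cbr1 and by 0.44 ± 0.38 in Cbr3, the latter 0.38 without the arrays with muscle transcripts. In CARko/PXRko against PXRko mice the values were 0.30 ± 0.20 and 0.23 ± 0.38, and for Cbr1 the 2 groups did not overlap, as was so, in the same direction, for 3.9% of genes. With limma, 0 of 2 members were called in each of these 4 comparisons, and 0 at an unadjusted p under 0.05, where 0.0234%, 0.0391%, 0.0234% and 0.0156% of genes were called. For Cbr3 the 95% intervals against WT reach 1.48, 1.46 and 1.23, so a resting difference of more than 2-fold in any of the 3 genotypes is not excluded by these arrays.

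Within groups the members deviated to the same side of their group means on 22 of 30 arrays: 9 of 12 under corn oil, 6 of 9 under CPA and 7 of 9 under DCB. Without the arrays with muscle transcripts it was 20 of 25. In WT mice the DCB array highest in Cbr3, replicate 3 (11.61 against 10.42 and 10.47), was also the highest in Cbr1. The corn oil WT array highest in both was replicate 3 as well, but numbers name arrays and do not pair them. The largest deviations belonged to Cbr3 in corn oil CARko/PXRko mice, 1.26 above and 1.00 below the group mean, while Cbr1 deviated by 0.07 and -0.22 on the same arrays. The 3 arrays of a group deviate to sum to 0 and share their processing, so these counts are a description.

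**Figure D3:**
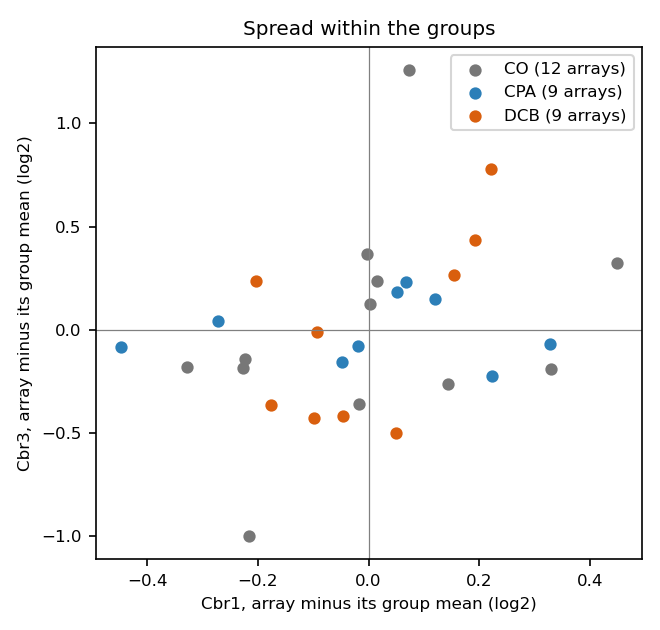
Deviation of each array from its group mean in log2 units, Cbr1 on the horizontal and Cbr3 on the vertical axis, for 12 corn oil (CO), 9 CPA and 9 DCB arrays. Both deviations have the same sign on 22 of 30 arrays, and the highest and lowest points are corn oil CARko/PXRko arrays.

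The profiles of the 2 genes over the groups resembled each other, but there were other genes that resembled each of them more. Pearson's r between their 10 group means was 0.75, 0.74 over the 7 groups not given DCB, and 0.77 over 10 groups without the arrays with muscle transcripts. By r over all 10 groups, Cbr3 ranked 573 of 12794 genes for Cbr1, and Cbr1 ranked 805 for Cbr3. These groups include the DCB groups, on which both members were chosen. The genes most like Cbr1 were Asrgl1 (an asparaginase and isoaspartyl peptidase), Tarbp2 (a partner of Dicer), Eef1akmt1 (a lysine methyltransferase of an elongation factor), Chchd6 (a mitochondrial cristae protein) and Cdpf1. Their r ran from 0.954 to 0.990 over 10 groups and from 0.941 to 0.993 over the 7 without DCB. Asrgl1 led in both, with group means of 7.69 to 7.78 under corn oil, 8.25 to 8.46 under CPA and 8.37 to 8.78 under DCB, a range of 1.09 log2 units. Closest to Cbr3 were Srxn1 (sulfiredoxin, an antioxidant enzyme), Abcc4 (an export pump), Noc2l (a nucleolar and chromatin protein), Ost4 (a subunit of the oligosaccharyltransferase) and Set (a chromatin and phosphatase regulator), at 0.981 to 0.991. Without the DCB groups, r for these 5 genes was 0.86, 0.65, 0.92, 0.91 and 0.87. In the same order, their group means spanned 3.14, 5.25, 0.77, 0.61 and 0.39 log2 units over the 10 groups. The Cbr3 means ran from 5.73 to 12.23, and r takes no account of size. Without the arrays with muscle transcripts, r over 10 groups ran from 0.85 to 0.97 for the 5 genes beside Cbr1 and from 0.93 to 0.99 for those beside Cbr3. Under CPA, Srxn1 differed from corn oil by 0.10 ± 0.25, 0.60 ± 0.25 and 0.42 ± 0.25 in the 3 genotypes in the same order, and Abcc4 by -0.38 ± 0.59, -0.02 ± 0.59 and -0.23 ± 0.59. These correlations are over group means that share treatments and arrays, and the genes were picked for them, so no test applies.

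**Figure D4:**
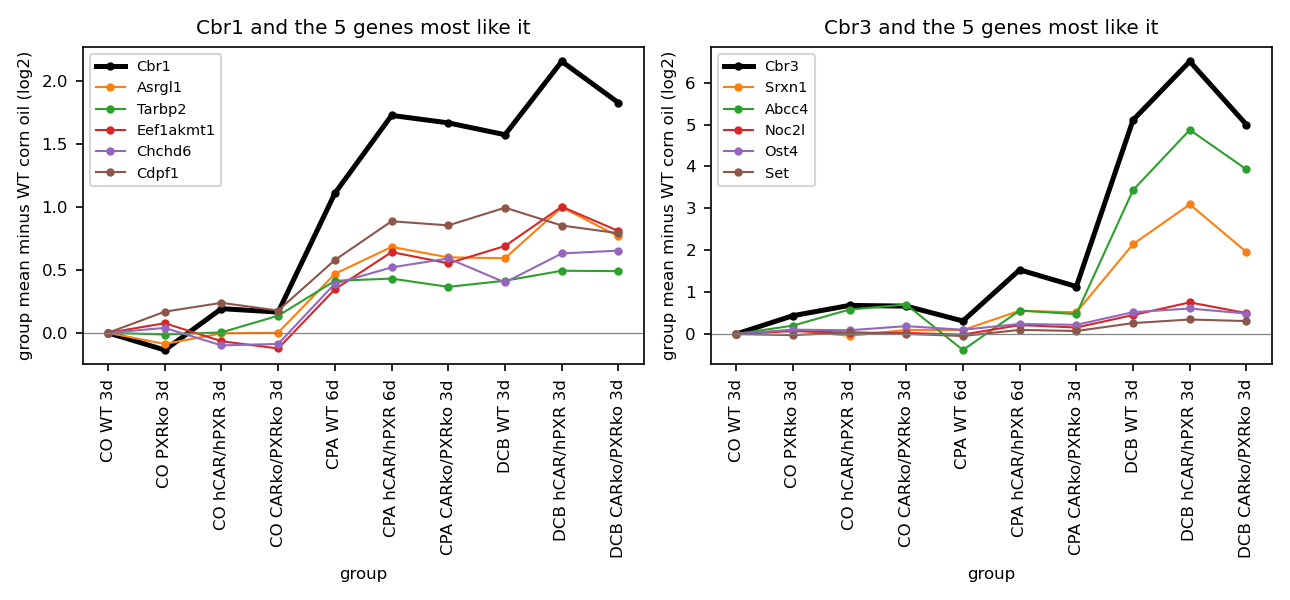
Group means relative to WT corn oil (log2) over the 10 groups for Cbr1 (left) and Cbr3 (right), each in black with the 5 genes of highest r; lines only join the points of a gene. The Cbr1 set is raised in both the CPA and the DCB groups, and the Cbr3 set is raised most in the DCB groups.

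Most other enzymes that reduce carbonyls, like most genes tested, were not called under either compound. Of 25 further reductases listed, 22 were tested, among them aldo-keto reductases (Akr genes) and short-chain dehydrogenases (Dhrs genes, Dcxr). Under DCB 1 rose in WT mice and 1 in hCAR/hPXR mice, and both times it was Akr1c19, a hydroxysteroid dehydrogenase, by 1.17 ± 0.24 (limma adjusted p = 0.0151) and 1.49 ± 0.24 (adjusted p = 0.000603). In CARko/PXRko mice 0 of 22 were called under DCB, 4 at an unadjusted p under 0.05, and Akr1c19 was 0.88 ± 0.24 above corn oil (limma adjusted p = 0.190). Without the arrays with muscle transcripts, which leaves 1 DCB array there, Akr1c19 was at 0.98 ± 0.33 and Ptgr1 at 1.40 ± 0.76. Genes called higher made up 0.61%, 3.29% and 0.117% of all tested in the 3 genotypes. Ptgr1, which reduces prostaglandins and lipid aldehydes, was 1.32 ± 0.48, 1.24 ± 0.48 and 1.26 ± 0.48 above corn oil under DCB in the 3 genotypes, without a call. The list's median DCB difference was 0.01, 0.10 and 0.03, against -0.01, -0.02 and 0.01 over all genes.

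Under CPA 0 of the 22 were called in WT and hCAR/hPXR mice (3 and 2 at an unadjusted p under 0.05), with list medians of -0.11 and -0.13. Of all genes tested, 1.12%, 4.42% and 5.49% were called under CPA in WT, hCAR/hPXR and CARko/PXRko mice. With shares this low, a count of 0 in 22 does not set these enzymes apart. In CARko/PXRko mice Dcxr, which reduces dicarbonyls and xylulose, rose by 0.92 ± 0.25 (limma adjusted p = 0.0341), and Akr1d1, the steroid 5-beta-reductase of bile acid synthesis, by 1.12 ± 0.31 (limma adjusted p = 0.0362). Both kept their call without the arrays with muscle transcripts, at 0.85 ± 0.23 and 1.13 ± 0.27. The list median there was -0.17, against -0.01 over all genes. For comparison, Cbr1 rose by 1.50 in the same arrays. Cbr4, a mitochondrial carbonyl reductase, differed from corn oil by -0.23 to 0.29 over the 6 treated groups and was not called, and Cbr2, known as a lung enzyme, did not pass the filter on dim genes.

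**Figure D5:**
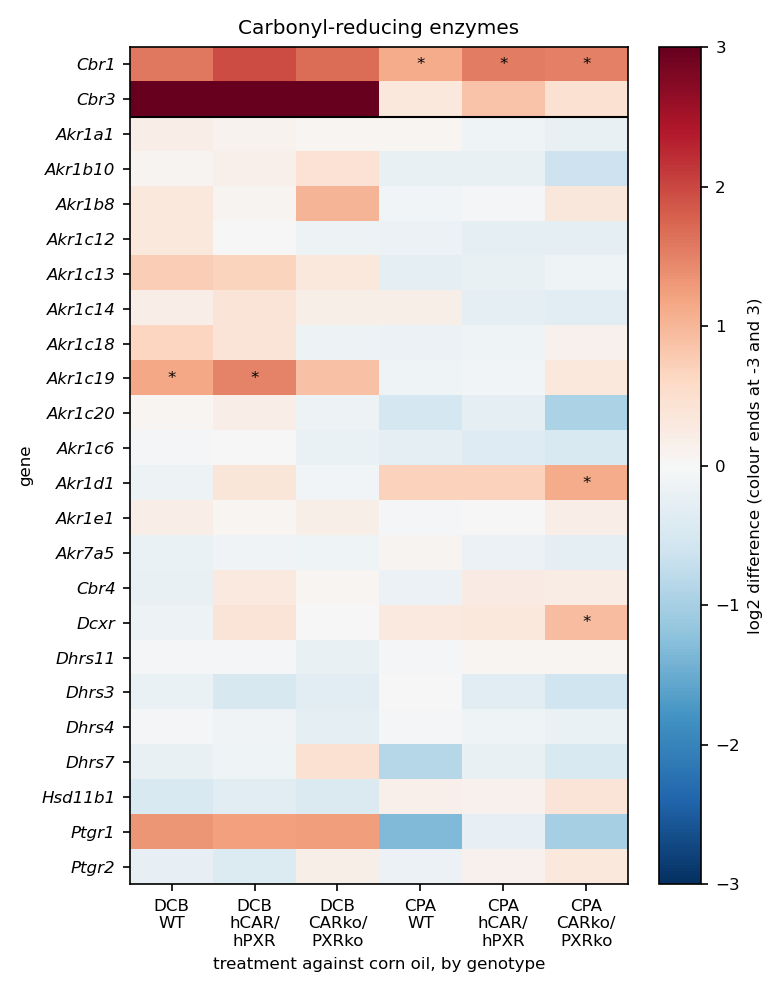
log2 difference from corn oil for Cbr1, Cbr3 and 22 other carbonyl-reducing enzymes in the 6 treated groups, with red for higher and blue for lower; colour ends at -3 and 3, which the Cbr3 values under DCB exceed. Asterisks mark an adjusted p under 0.05, and the DCB columns of Cbr1 and Cbr3 carry none because they were not tested.

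Of 15 measured NRF2 target genes, 9 rose under DCB in WT mice, 9 in hCAR/hPXR mice and 3 in CARko/PXRko mice, with medians of 1.20, 1.34 and 0.81. Of all genes tested, 0.61%, 3.29% and 0.117% were called higher under DCB in these genotypes, so calls were fewest in CARko/PXRko mice in general. The targets that rose in CARko/PXRko mice were Srxn1 (1.86 ± 0.25), Ugdh (1.17 ± 0.18) and Abcc4 (3.23 ± 0.59). Of the 6 arrays behind that count, 2 DCB arrays and 1 corn oil array carry muscle transcripts. Without the muscle arrays, Srxn1 was at 2.29 ± 0.35, Ugdh at 1.32 ± 0.28 and Abcc4 at 4.09 ± 0.79. With 1 DCB array left, whether the 3 calls hold without those arrays cannot be judged. The list median was then 0.72. Under CPA 1 rose and 0 fell in WT, 1 rose and 1 fell in hCAR/hPXR, and 2 rose and 1 fell in CARko/PXRko mice, with medians of 0.08, -0.02 and 0.07. The quinone reductase Nqo1 rose in hCAR/hPXR (1.36 ± 0.36) and CARko/PXRko mice (1.70 ± 0.36) under CPA, while Osgin1, an oxidative stress-induced growth inhibitor, fell by 1.69 ± 0.36 and 1.70 ± 0.36. Without the muscle arrays Nqo1 in CARko/PXRko mice was at 2.14 ± 0.36, Osgin1 at -1.78 ± 0.34, and the counts there were again 2 higher and 1 lower. Genes called lower under CPA made up 2.9% and 3.31% of all tested in these genotypes. The list was chosen with earlier results of these data known and is no independent evidence of a direction. The RNA of the NRF2 regulators was not called under DCB in any of 9 genes per genotype (1, 1 and 0 at an unadjusted p under 0.05). Over all genes, 0.735%, 7.64% and 0.117% were called there in either direction, so a count of 0 in 9 does not set these regulators apart. Under CPA Nfe2l2, which encodes NRF2, fell by 0.87 ± 0.21 in CARko/PXRko mice (limma adjusted p = 0.0160), and Maff, a small partner protein of NRF2, fell by 1.03 ± 0.28 in hCAR/hPXR mice (limma adjusted p = 0.0329). Of 4 enzymes tested that make NADPH, the cofactor of carbonyl reductases, 1 was called in any treated group: Pgd rose by 1.65 ± 0.46 in hCAR/hPXR mice under DCB.

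None of the genes tested around the pair was called. RefSeq lists no protein-coding gene between Cbr1 and Cbr3, and 7 of the 8 nearest on both sides were tested: Rcan1, Clic6, Runx1, Setd4, Dop1b, Morc3 and Chaf1b. With limma, 0 of the 7 were called under DCB or CPA in any of the 3 genotypes, and at most 1 had an unadjusted p under 0.05. Of all genes tested, 0.735%, 7.64% and 0.117% were called in either direction under DCB in the 3 genotypes (WT, hCAR/hPXR, CARko/PXRko), and under CPA 1.12%, 4.42% and 5.49%. With shares this low, a count of 0 in 7 does not set these neighbours apart. Their differences from corn oil ran from -0.20 to 1.10 under DCB and from -0.42 to 0.70 under CPA. The largest belonged to Setd4, a lysine methyltransferase and the gene next to Cbr1. It was at 1.10 ± 0.28 under DCB in CARko/PXRko mice (limma adjusted p = 0.126). Without the arrays with muscle transcripts, which leaves 1 DCB array there, Setd4 was at 1.03 ± 0.42 and Rcan1 at 1.22 ± 0.56.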

How the data were processed

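Liver RNA of 30 mouse samples was measured on Affymetrix arrays. The deposited values are log2 probe set summaries; per the submitters' processing notes they were made by RMA, with version and settings not given in the sources used here. Of 45037 probe sets, 34945 had a single gene (18193 genes, named by GEO's platform annotation), 932 had several and 9160 none. Each gene was represented by its single-gene probe set with the highest mean, and the 12795 genes above the array median on 3 or more arrays were tested. The linear model had 1 mean for each group over the 30 arrays (limma 3.58.1, R 4.3.3; lmFit, eBayes, two-sided, Benjamini-Hochberg over all genes tested; 20 residual and 3.62 prior degrees of freedom), and genes were called at an adjusted p under 0.05. The procedure was tried on simulated data with large differences and independent noise. That does not show how it performs on smaller differences or on arrays with foreign tissue. The number of arrays limits the precision.

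The members and lists were chosen with earlier results of these data known. By a fixed rule the text names both members, the 5 genes of highest r for each, 4 protein-coding neighbours on each side (order from RefSeq, assembly GRCm38.p6), and up to 4 genes of smallest p per list. Ptgr1, Setd4, Cbr2 and Cbr4 were singled out after their values were seen. Some listed genes had no single-gene probe set here and were not analysed. Promoter sequences are RefSeq's, build GRCm38.p6, and protein sequences were not used here. Alternatives were 2 filters, repeated normalization, median centring, 2 treatments of probe sets, another variance model, a block for the replicate number, weights per array, fits on the compared groups alone, and leaving out arrays.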

Additional observations from a re-analysis of the deposited data

How the results depend on the processing

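The 28 differences reported for Cbr1 and Cbr3 were recomputed under 10 or, where the arrays with muscle transcripts enter, 11 alternative settings, and without each array of the groups compared in turn (6 or 12 per difference). Of 510 values, 494 kept their direction and their side of the threshold, or, where no test applied, stayed within 1 SD of the arrays. Several settings cannot move a value here, where each member has 1 probe set, and can change only its SE and p. These are the 2 filters, the 2 treatments of probe sets, the other variance model, the replicate block and the fits on the compared groups alone. The count of 494 is therefore partly fixed in advance. Without single arrays, the Cbr1 rise under CPA in WT mice ran from 1.00 to 1.33 and lost its call without corn oil WT replicate 1 or 2, which leaves 2 controls; under the other settings it ran from 1.11 to 1.24 with adjusted p of at most 0.00799. Differences that changed sign when 1 array was left out, none of them called or, for DCB, tested, were Cbr3 under CPA in CARko/PXRko mice (-0.030 to 1.10), its distance from WT (-0.34 to 0.78), Cbr3 in corn oil CARko/PXRko against PXRko mice (-0.40 to 0.73), Cbr1 in corn oil PXRko against WT mice (-0.25 to 0.088), and the distance of the Cbr1 DCB difference in CARko/PXRko from that in WT mice (-0.14 to 0.20). With array weights 3 of these values changed sign: Cbr1 in corn oil PXRko against WT mice was 0.00307, Cbr3 in corn oil CARko/PXRko against PXRko mice was -0.14, and the Cbr1 DCB distance was -0.021. Without the 4 arrays with muscle transcripts, Cbr3 in CARko/PXRko against PXRko mice was -0.34, the DCB differences in CARko/PXRko mice were 1.86 for Cbr1 and 5.22 for Cbr3, and the Cbr3 distance from WT turned to 0.11; fewer arrays, 1 of them a lone DCB array assumed to vary like the other groups, give these values. The cause was not tested further. Leaving those arrays out was applied to the listed genes, ranks and likeness after seeing the data. Under DCB in CARko/PXRko mice it leaves 1 array, so calls of listed genes are not compared there. The replicate numbers do not pair the arrays: deviations of same-numbered arrays had a median correlation of 0.01 (lowest -0.59), and 13 of 30 arrays correlated best with their own number. Every group holds 1 array of each number, so a replicate block cannot move any of the 28 values, only their SE and p. With the block no call changed (Cbr1 under CPA in WT mice 1.11, limma adjusted p = 0.00799). Cbr3 lies near the array medians outside the DCB groups, which limits how well small differences in it can be measured.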
